A study of Mus musculus with 3 samples.

Results

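The DNA replication and S phase genes described here are 35 protein-coding genes whose products license and open replication origins, supply nucleotides, copy and join DNA, and rebuild chromatin behind the fork. They were chosen by symbol, 35 of the 33696 genes in the deposited tables, and all 35 were found. By role they comprised 13 helicase and origin genes, 6 nucleotide supply genes, 11 polymerase and repair genes and 5 chromatin and histone supply genes. The cells were immune cells washed from the right lung lobes of wild-type C57BL/6J mice aged 12 weeks that had spent 3 h in filtered air, in 1 ppm ozone or in 1.5 ppm ozone. The mice were killed 22 to 24 h after the exposure. Ozone is an oxidant gas that injures the airway lining. The cells of 3 to 4 mice were pooled within each group and sequenced as 1 droplet library that counts unique molecular identifiers (UMIs, one per captured transcript) from the poly(A) end. Each group is therefore 1 library. There is no replicate and no test, and dose, day and library preparation cannot be told apart.

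Replication is licensed in G1, when the MCM helicase is loaded on origins, and starts in S phase, when the helicase is activated and polymerases are recruited to it. Transcription of most of these genes is switched on at the G1 to S boundary by E2F factors, so the genes mark cells that prepare for or pass through S phase. Genes of the later G2 and M phases are mostly controlled through CCAAT boxes and the cell cycle homology region (CHR). Alveolar macrophages, the resident phagocytes of the airspace and the main cells of a lavage, can renew themselves by dividing within the lung.

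Promoter sequences of 31 of the 35 members were matched in RefSeq (build GRCm38.p6); the sequences are of that build, whereas the counts were made on GRCm39. The 4 stretches printed here, 1 per role, show what an E2F-type word looks like beside the start of a replication gene. Each is the 150 bases before the RefSeq gene start, 5′ to 3′ on the gene's strand, and capitals mark the word TTCCCGC, the related word TTGGCGC, a further form written TTCGCGC and a last form written TTGCCGC, each on either strand.
Dtl, chr1:191575545-191575694 (minus strand): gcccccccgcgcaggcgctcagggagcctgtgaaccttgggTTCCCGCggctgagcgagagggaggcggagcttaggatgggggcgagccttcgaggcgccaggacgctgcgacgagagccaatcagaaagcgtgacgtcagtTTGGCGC
Dtymk, chr1:93801935-93802084 (minus strand): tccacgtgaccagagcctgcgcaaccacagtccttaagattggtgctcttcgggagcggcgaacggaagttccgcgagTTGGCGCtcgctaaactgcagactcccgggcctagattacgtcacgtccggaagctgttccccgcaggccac
Pola1, chrX:93632156-93632305 (minus strand): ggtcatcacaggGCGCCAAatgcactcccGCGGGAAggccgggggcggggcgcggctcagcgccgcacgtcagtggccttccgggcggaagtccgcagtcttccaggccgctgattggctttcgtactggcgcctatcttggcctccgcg
Hells, chr19:38930840-38930989 (plus strand): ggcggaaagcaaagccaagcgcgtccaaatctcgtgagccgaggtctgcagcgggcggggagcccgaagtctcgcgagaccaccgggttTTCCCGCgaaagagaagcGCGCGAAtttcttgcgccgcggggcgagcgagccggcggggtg
The 2 words of Dtl began 109 and 7 bases before the start, the single word of Dtymk 72 bases before it, those of Pola1 138 and 121 bases and those of Hells 61 and 43 bases. Over the full 300-base window (250 bases before to 50 after the start), 20 of 31 member promoters held such a word (64.5%), and 10 held at least 2 that did not overlap. The same words occurred in 9.69% of all 27025 promoters and in 17.5% of the 10013 promoters of genes with at least 100 UMIs in these cells. Of the 17 matched promoters of a 20-gene G2 and M phase list (Mki67, Top2a, Ccnb1 and others), 3 held one (17.6%). CCAAT, searched on both strands, was present in 21 member promoters (67.7%), against 37.9% of all promoters and 88.2% of the G2 and M list. The CHR words TTTGAA and TTCGAA were found in 4 member promoters (12.9%), 19.4% of all promoters and 76.5% of the G2 and M list. A match describes the letters in the window and is not a measured binding site.

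After filtering, 3479 cells remained for filtered air, 2241 for 1 ppm and 6577 for 1.5 ppm, with 50808279, 38147865 and 93824775 UMIs. The 1.5 ppm library differed from the others in its median depth (11986 UMIs per cell, against 13663 for air and 15743 for 1 ppm) and in its median mitochondrial share (2.24%, against 4.08% and 3.93%). Libraries shared 2, 7 and 1 cell barcodes pairwise. Clusters called alveolar-macrophage-like from marker genes held 3314, 2134 and 5645 cells, 11093 of 12297 in all. A level below is a gene's share of a library's UMIs, in counts per 1000000 (CPM). Brackets give exact 95% intervals, which cover the counting of UMIs or cells only and not differences between mice or preparations. Those of levels and ratios treat each UMI as independent and do not cover which cells were sampled. Member UMIs lay unevenly among cells (for Pclaf in air, 3628 UMIs came from 355 cells), so these intervals are too narrow for that.

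Summed over the 35 members, the level was 1192 CPM after filtered air, 1085 CPM after 1 ppm and 1954 CPM after 1.5 ppm. The 1.5 ppm library stood apart and the other 2 lay close together. Its ratio to air was 1.64 (1.63 to 1.66) and its ratio to 1 ppm 1.80 (1.78 to 1.82), while 1 ppm over air gave 0.911 (0.899 to 0.922). Of the 35 members, 34 had their highest level at 1.5 ppm, the exception being Cdt1, and 26 had their lowest level at 1 ppm. These orders were not counted over all genes. All 35 had at least 100 UMIs over the 3 libraries. A member was counted as higher when its level, after adding 1 UMI to each sum, was at least 1.5-fold that of the other library. By this rule 23 members were higher at 1.5 ppm than in air, against 13.3% of all 13355 genes with 100 UMIs, and none was lower, against 4.16%. The median log2 ratio of the members was 0.66, and that of all genes -0.04. In direction alone, 34 members lay above 0, as did 6190 of the 13355 genes. Of the 23, 7 passed 2-fold (Pclaf, Dut, Mcm10, Rfc4, Cdc6, Gins2 and Dtymk), against 5.12% of all genes. When cells with 3 or more UMIs of the G2 and M list were removed from each library, 6 members were higher, against 11.2% of all genes, and the median log2 ratio was 0.19.

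**Figure D1:**
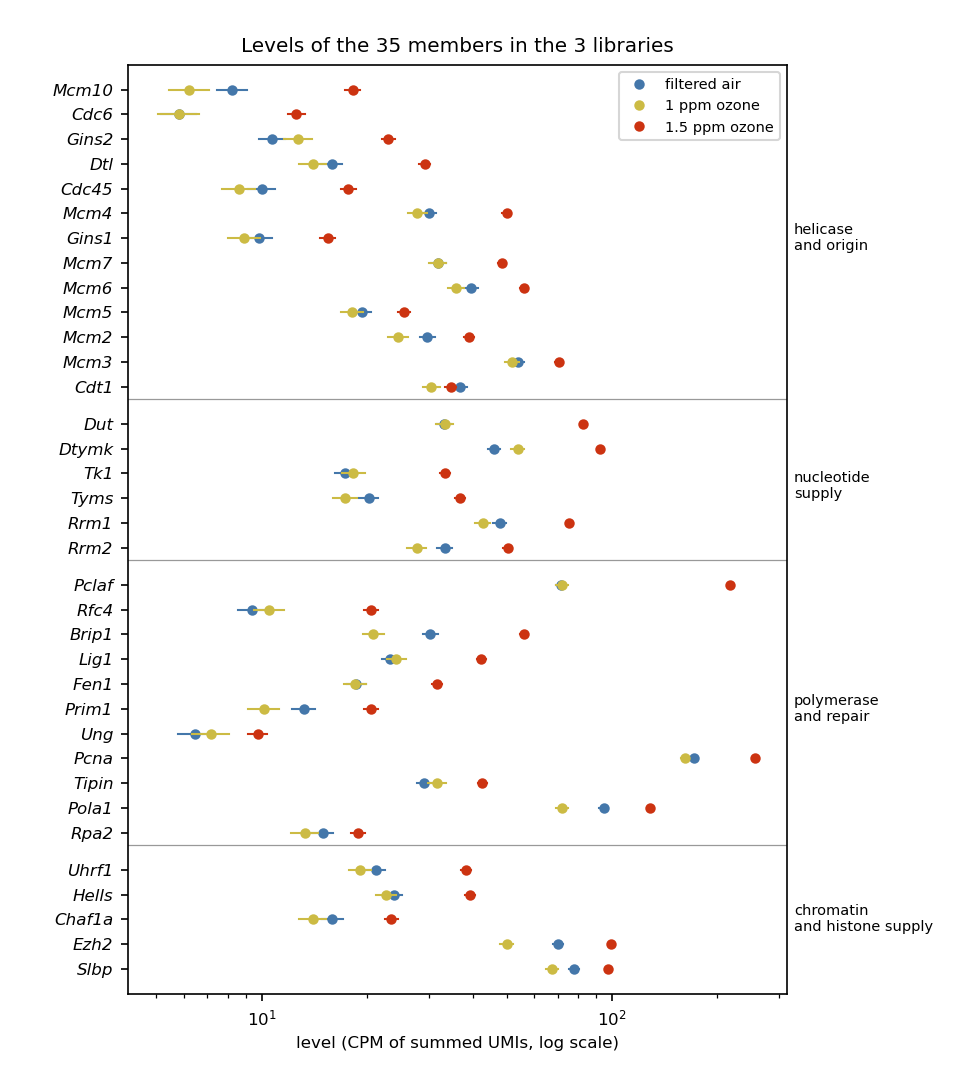
Level of each of the 35 members in each library (CPM of summed UMIs, log axis), grouped by role and ordered by the ratio of 1.5 ppm to air. Points are library values and bars exact 95% Poisson intervals; 34 of 35 members have their highest level at 1.5 ppm ozone, Cdt1 being the exception.

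The helicase and origin group holds the 6 subunits of the MCM2-7 helicase, the proteins that load it (Cdc6, Cdt1) and those that activate it (Cdc45, Gins1, Gins2, Mcm10). In air, 1 ppm and 1.5 ppm, Mcm2 stood at 29.7, 24.5 and 39.2 CPM, Mcm3 at 54.1, 51.8 and 70.45 CPM and Mcm5 at 19.3, 18.1 and 25.5 CPM. For Mcm4 the levels were 29.98, 27.8 and 50.04 CPM, for Mcm6 39.5, 35.9 and 56.2 CPM and for Mcm7 31.9, 31.8 and 48.5 CPM. Every subunit was thus highest at 1.5 ppm, but the 6 subunits of this one ring were not higher by the same amount. The ratio of 1.5 ppm to air ran from 1.303 for Mcm3 (1.25 to 1.36) and 1.32 for both Mcm2 and Mcm5 to 1.52 for Mcm7 (1.44 to 1.61) and 1.67 for Mcm4 (1.58 to 1.77). Mcm6 lay between them at 1.42. Only Mcm4 and Mcm7 passed 1.5-fold.

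Of the activators, Mcm10, Gins2 and Cdc45 had larger ratios than any subunit of the ring, and Gins1 did not. Mcm10, which helps the loaded helicase open DNA, stood at 8.23, 6.21 and 18.2 CPM, 2.21-fold higher at 1.5 ppm than in air (1.98 to 2.46). Gins2, a subunit of the GINS complex that joins the helicase, had 10.7, 12.7 and 22.95 CPM and a ratio of 2.14 (1.95 to 2.35). Its partner Gins1 had 9.82, 8.91 and 15.4 CPM, a ratio of 1.57. The intervals of these 2 subunits did not overlap. Cdc45, the third component of the active helicase, gave 9.998, 8.60 and 17.7 CPM and a ratio of 1.77.

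The loading factors went apart. Cdc6, which brings the MCM ring to the origin, stood at 5.81, 5.79 and 12.6 CPM, a ratio of 2.16 (1.90 to 2.47) at 1.5 ppm. Its levels in air and 1 ppm were alike. Cdt1, which delivers the ring together with Cdc6 and is degraded once S phase starts, had 36.8, 30.5 and 34.6 CPM, a ratio of 0.9397 (0.887 to 0.995), and was the only member below its air level. That direction was not stable, since the log2 ratio of Cdt1 was -0.09 over all cells, 0.02 with no limit on mitochondrial share and 0.13 among barcodes of 2.5 to 4% mitochondrial UMIs. Dtl, the substrate adaptor of the ubiquitin ligase that removes Cdt1, had 15.8, 14.0 and 29.2 CPM and a ratio of 1.84 (1.70 to 2.00).

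All 6 nucleotide supply genes passed 1.5-fold at 1.5 ppm, and their summed level went from 197.9 CPM in air and 193.1 CPM after 1 ppm to 371.4 CPM, 1.88 times the air level (1.84 to 1.92). Dut, which destroys dUTP and so keeps uracil out of DNA, stood at 33.1, 33.3 and 82.9 CPM, 2.501-fold higher than in air (2.37 to 2.64). Dtymk, the thymidylate kinase, had 46.1, 53.8 and 92.4 CPM and a ratio of 2.00 (1.91 to 2.10). Its level was also above air at 1 ppm, by 1.17-fold (1.099 to 1.24). Tk1, the salvage thymidine kinase, gave 17.3, 18.3 and 33.3 CPM, and Tyms, which makes thymidylate anew, 20.2, 17.3 and 36.9 CPM. Their ratios were 1.93 and 1.82. The ribonucleotide reductase subunits had the lowest ratios of the group, at 1.58 for Rrm1 (47.75, 42.8 and 75.5 CPM) and 1.51 for Rrm2 (33.3, 27.7 and 50.35 CPM). Thus all 4 thymidylate and dUTP genes had larger ratios than both subunits of the reductase.

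Among the polymerase and repair genes, Pclaf had the largest ratio of all 35. Pclaf binds the sliding clamp PCNA at the fork. It stood at 71.4 CPM in air, 72.1 CPM after 1 ppm and 217 CPM after 1.5 ppm. Its level at 1.5 ppm was 3.04 times that in air (2.93 to 3.15), and the ratio was 1.009 (0.960 to 1.06) for 1 ppm over air. Pcna itself, the clamp, had 172, 162 and 257 CPM and a ratio of 1.49 (1.46 to 1.53), just under the 1.5-fold rule. With Pcna, Chaf1a was the nearest member outside that threshold, at a log2 ratio of 0.56, and Ung and Rrm2 were the nearest inside it, at 0.59 and 0.60.

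Rfc4, a subunit of the loader that opens the clamp, had 9.41, 10.5 and 20.55 CPM and a ratio of 2.18 (1.98 to 2.42). Of the genes that finish the lagging strand, the ligase gene Lig1 stood at 23.3, 24.25 and 42.4 CPM (ratio 1.82) and the flap nuclease gene Fen1 at 18.6, 18.5 and 31.65 CPM (ratio 1.70). For these 3 genes and Pclaf the interval of the 1 ppm ratio held 1. Of the polymerase alpha-primase genes, both members were lower at 1 ppm than in air. Pola1, the catalytic subunit, had 94.6, 71.9 and 128 CPM, and Prim1, the primase, 13.2, 10.1 and 20.5 CPM. The 1 ppm ratios were 0.760 (0.725 to 0.797) and 0.769 (0.676 to 0.872), and those at 1.5 ppm 1.35 and 1.56. The other 2 subunits, which are no members and were looked up after these values were seen, went apart at 1 ppm, with ratios of 0.805 (0.763 to 0.848) for Prim2 and 0.983 (0.895 to 1.079) for Pola2. Brip1, a helicase of interstrand crosslink repair, had the lowest ratio of all members at 1 ppm, 0.688 (0.631 to 0.750), with 30.3, 20.8 and 56.1 CPM, and a ratio of 1.85 at 1.5 ppm. Rpa2, of the single-strand binding complex, stood at 14.9, 13.3 and 18.8 CPM, Tipin, of the fork protection complex, at 29.1, 31.7 and 42.7 CPM, and Ung, the uracil glycosylase, at 6.46, 7.16 and 9.73 CPM, with ratios at 1.5 ppm of 1.26, 1.47 and 1.51.

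The 5 chromatin and histone supply genes all had lower levels at 1 ppm than in air and higher levels at 1.5 ppm. Uhrf1, which carries DNA methylation across the fork, stood at 21.2, 19.1 and 38.3 CPM (ratio 1.81 at 1.5 ppm). Hells, a chromatin remodeller, had 23.8, 22.7 and 39.3 CPM (ratio 1.65). These 2 were the only ones of the group past 1.5-fold. Chaf1a, the large subunit of the histone chaperone CAF-1, gave 15.9, 14.0 and 23.45 CPM and a ratio of 1.47. Ezh2, the histone H3 lysine methyltransferase, had 70.1, 50.02 and 99.6 CPM, with ratios of 0.714 (0.675 to 0.755) at 1 ppm and 1.42 at 1.5 ppm. Slbp, which binds the stem-loop of histone messages, stood at 77.8, 67.3 and 97.7 CPM, a ratio of 1.26 (1.21 to 1.303).

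**Figure D2:**
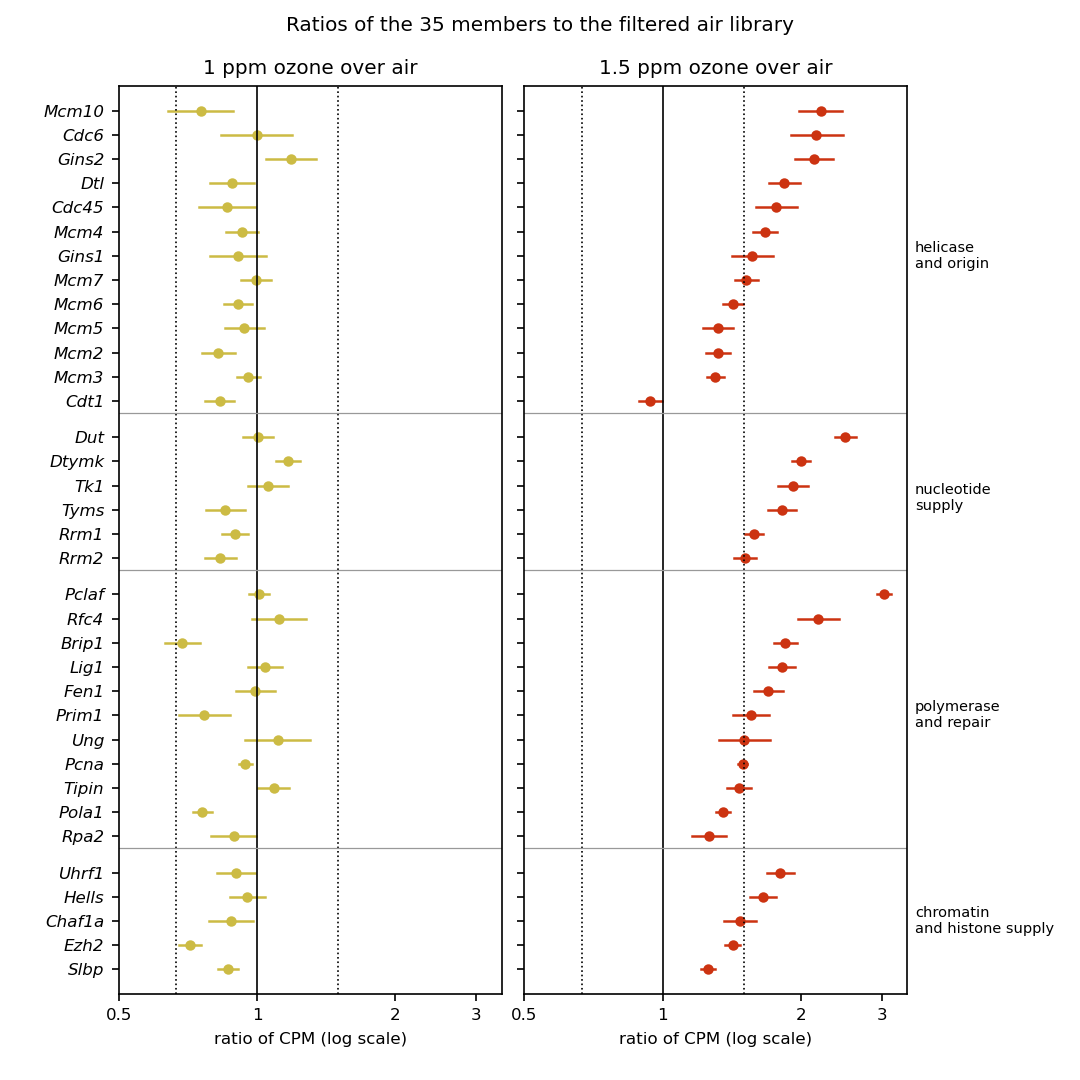
Ratio of each member's CPM to the filtered air library for 1 ppm ozone and 1.5 ppm ozone (log axes); bars are exact conditional 95% intervals, solid lines mark 1 and dotted lines 1.5-fold in either direction. At 1 ppm the ratios run from 0.688 (Brip1) to 1.19 (Gins2), and at 1.5 ppm from 0.9397 (Cdt1) to 3.04 (Pclaf).

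At 1 ppm no member reached 1.5-fold in either direction, against 2.02% of all genes higher and 4.41% lower. The median log2 ratio of the members was -0.14 and that of all genes -0.06, with 9 members above 0 and 26 below. Of the 13355 genes, 5434 lay above 0 and 7921 below. Counting error alone left 18 members with an interval below 1, 3 above it (Gins2, Dtymk and Tipin) and 14 that held 1. Such intervals were not counted over all genes. Brip1, Ezh2, Mcm10, Pola1 and Prim1 had the lowest ratios. This direction depended on the cells used. Among barcodes of 2.5 to 4% mitochondrial UMIs, 21 members lay above 0 and 14 below, and the median turned to 0.034.

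The comparison of 1.5 ppm with 1 ppm shares a library with each of those above. In it 28 members were higher by 1.5-fold, against 13% of all genes, and none was lower, against 2.83%. Of these, 10 passed 2-fold, against 6.3%, and all 35 intervals lay above 1, including that of Cdt1 (1.13, 1.06 to 1.21). The median log2 ratio was 0.82 for the members and 0.03 for all genes.

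Other genes of the same pathway were read from 5 further lists, all of whose members had at least 100 UMIs. Their counts stand beside the 13.3% of all genes higher and 4.16% lower at 1.5 ppm than in air. Of 17 genes of origin recognition and firing, 7 were higher by 1.5-fold at 1.5 ppm than in air and none was lower. The largest log2 ratios were those of Gmnn, the inhibitor of Cdt1 (1.18), Mcm8 (1.14), Ticrr (1.04) and the origin recognition subunit Orc6 (0.93). Of 20 further polymerase, clamp loader and fork genes, 8 were higher and none lower, with Clspn at 0.99, Pole at 0.98, Rfc3 at 0.93 and Rpa3 at 0.89. Of 12 further nucleotide and histone supply genes 3 were higher and none lower, with Nme1 at 1.04, Asf1b at 0.87 and the histone chaperone Nasp, under the threshold, at 0.52. The list medians were 0.40, 0.48 and 0.37.

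Upstream of S phase, 7 of 21 G1 to S control genes were higher and 1 was lower. The repressor E2f8 (log2 1.33), the cyclins Ccnd1 (1.05), Ccne1 (0.94) and Ccne2 (0.86) had the largest ratios of that list, whose median was 0.18. Ccnd1 was a low gene, with 2.28 CPM in air and 4.76 CPM at 1.5 ppm. The gene that was lower was the cyclin Ccnd3 (log2 -0.65), with 334 CPM in air and 212 CPM at 1.5 ppm. Just short of the threshold were Cdk6 (-0.584, with 386 and 257 CPM) and the cyclin Ccnd2 (-0.576, with 293 and 197 CPM). Ccnd3, Cdk6 and Ccnd2 were named after their values were seen. The summed level of the list was below air at 1.5 ppm, at 0.869 times (0.862 to 0.877), so the sum and the median differ in sign. Downstream of it, 18 of 20 G2 and M genes were higher and 10 passed 2-fold. That list had a median log2 ratio of 1.021, above the 0.66 of the members. Mki67 stood at 60.4, 58.5 and 176.5 CPM (log2 1.55), Birc5 at 37.5, 41.1 and 103.0 CPM (1.46), and Prc1 and Hmmr had log2 ratios of 1.35. At 1 ppm no gene of the 5 lists was higher by 1.5-fold, and 1 origin gene and 1 G1 to S gene (Ccnd1, -1.17) were lower.

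To see in which cells the members were read, each cell of at least 5000 UMIs was thinned at random to 5000, which left 3329, 2141 and 5567 cells and left out 150, 100 and 1010 shallower ones. The median cell held 2 member UMIs in the air and 1 ppm libraries and 3 at 1.5 ppm. The upper end differed more, the 90th percentile being 11, 8 and 25 UMIs. Cells with 10 or more member UMIs made up 11.7% of the air library (389 cells, 10.6 to 12.8%), 9.06% at 1 ppm (194 cells, 7.88 to 10.4%) and 21.9% at 1.5 ppm (1217 cells, 20.8 to 23.0%). Such cells held 57.2%, 51.1% and 71.7% of all member UMIs. The number is a range and not a cell type, since 138, 59 and 308 cells had 8 to 11 member UMIs. Without thinning the shares were 29.1%, 31.15% and 37.6%, and there the order of air and 1 ppm went against the summed levels.

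**Figure D3:**
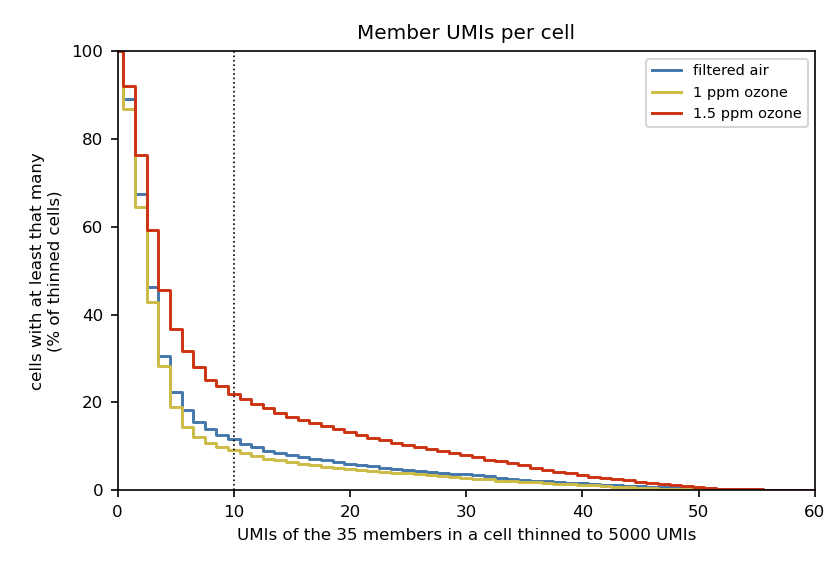
Share of thinned cells (vertical axis, %) with at least the number of member UMIs on the horizontal axis, by library; the dotted line marks 10. The curve of 1.5 ppm ozone lies above the other 2, with 21.9% of cells at 10 or more, against 11.7% for air and 9.06% for 1 ppm.

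Of the 389, 194 and 1217 cells with 10 or more member UMIs, 389, 192 and 1209 were alveolar-macrophage-like. Within that class the share was 11.9% in air, 9.14% at 1 ppm and 22.6% at 1.5 ppm, and the summed member level 1205, 1088 and 2013 CPM. The largest macrophage-like cluster of the air and 1 ppm libraries was another than that of the 1.5 ppm library. Pclaf stood at 72.6, 71.65 and 225 CPM in the class, and Dut at 33.6, 33.2 and 85.05 CPM, close to their levels over all cells. The 340 neutrophil-like cells, of which 327 came from the 1.5 ppm library, had a summed member level of 432 CPM (391 to 476). Their median depth was 2139 UMIs against 13957 in the macrophage-like class. The name is loose for 235 of them, a cluster led by Ccl4, Ccl3 and Thbs1 in which only 3 neutrophil markers counted. The other 105 were led by S100a9, S100a8 and Il1r2, with 6 markers counted. None of the 24 neutrophil-like cells deep enough for thinning reached 10 member UMIs, which allows a share of up to 12.5%. In the whole neutrophil-like class Pclaf was at 20.9 CPM and Rrm2 at 3.14 CPM, against 149.9 and 41.9 CPM in the macrophage-like class, whereas Slbp was at 77.4 CPM against 86.5 CPM. The small T cell-like class (95 cells) had a summed level of 1047 CPM, and the airway epithelial-like, migratory dendritic cell-like and monocyte and interstitial macrophage-like classes 511, 459 and 462 CPM. The 381 cells left without a name, with a median of 1101 UMIs, had 1708 CPM. By library their level was 1302 CPM in air (54 cells), 3132 CPM at 1 ppm (32 cells) and 1409 CPM at 1.5 ppm (295 cells), so here 1 ppm was highest.

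The cells with many member UMIs were deeper than the rest before thinning. Their median depth was 19139 UMIs in air, 24988 at 1 ppm and 20848 at 1.5 ppm, against 13523, 15606 and 12260 for the others. Their mitochondrial share was close to that of the other cells of the same library (4.19, 3.97 and 2.32%, against 4.08, 3.95 and 2.26%). No doublet caller was run, and the part of doublets in these cells was not tested. Without the 5% of cells of highest UMI total in each library, the shares were 10.05%, 7.25% and 19.7%.

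Cells were then divided by the G2 and M list, none of whose genes is a member. Cells with 10 or more member UMIs and under 3 UMIs of that list made up 6.34% (5.53 to 7.22%) in air, 4.67% (3.82 to 5.65%) at 1 ppm and 6.36% (5.73 to 7.03%) at 1.5 ppm. The shares of air and 1.5 ppm differed by less than their counting error. Cells with both 10 or more member UMIs and 3 or more of the list made up 5.35% (4.61 to 6.17%), 4.39% (3.56 to 5.35%) and 15.5% (14.6 to 16.5%). Here 1.5 ppm stood far above the others. Cells with the G2 and M list alone were 2.49%, 2.62% and 4.90%. The mean number of member UMIs per thinned cell was 4.94 in air and 7.86 at 1.5 ppm, and cells with both accounted for 96.7% of that difference, those with members alone for -0.36%. The first of these values lay between 84.8% and 114% under other depths, thresholds, cell selections and random draws. The cells were sorted by the same member UMIs that are split here, so a large part in cells with 10 or more follows in part from the sorting. Among those cells, the difference lay in cells with both and not in cells with members alone. Cells with both had 32.5, 30.6 and 29.4 member UMIs on average, a value bounded by the choice of these cells on the same UMIs.

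**Figure D4:**
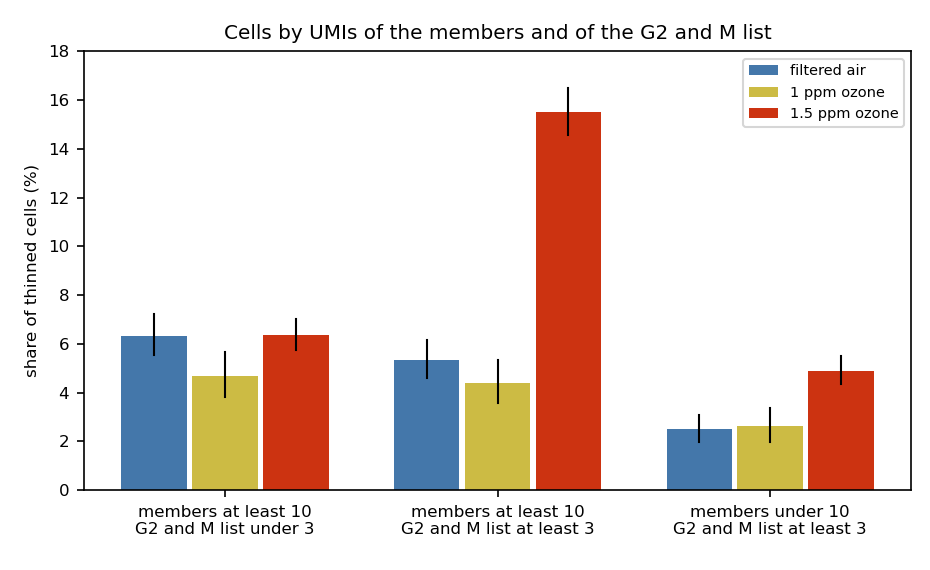
Share of thinned cells (%) in 3 sets formed by the UMIs of the 35 members (10 or more, or fewer) and of the 20-gene G2 and M list (3 or more, or fewer), by library; bars are shares and lines exact 95% binomial intervals. Cells with both make up 15.5% at 1.5 ppm ozone, 5.35% in air and 4.39% at 1 ppm, while cells with members alone make up 6.36%, 6.34% and 4.67%.

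The members varied in how sharply they marked such cells. For each gene the cells were sorted by the other 34 members, and its level in cells with 10 or more of their UMIs was divided by that in cells with 0 to 2. The ratio had a median of 13.5 and was above 1 for all 35 members in each library. It was largest for Dtl, at 136 (103 to 183), followed by Rrm2 at 94.1, Uhrf1 at 78.4, Pclaf at 70.45 and Mcm10 at 52.05. In cells with 0 to 2 UMIs of the others, Dtl stood at 0.658 CPM and Rrm2 at 1.79 CPM. The smallest ratios were those of Dtymk, at 3.65 (3.499 to 3.81), Slbp at 4.43, Cdt1 at 5.70 and Pcna at 6.55. Those 4 genes kept 41.8, 46.8, 15.1 and 92.1 CPM in the same cells.

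The members also differed in how their levels compared between cells with members alone and cells with the G2 and M list alone. The level in cells with 10 or more UMIs of the other members and under 3 of the G2 and M list was divided by that in cells with the G2 and M list alone. The second set had under 10 UMIs of the other members, so for genes that rise together a ratio above 1 follows in part from this choice of cells. The ratio was above 1, interval included, for 32 members, with a median of 3.08. It was highest for Ung, at 21.75 (13.3 to 38.4), and Cdc6, at 10.55, Hells, at 9.60, and Dtl, at 9.58, followed. Of the MCM subunits, Mcm6 had 8.70 and Mcm7 3.08. Rrm2 and Tk1 were the 2 members whose interval held 1, at 1.018 and 0.952. Pclaf alone lay below it, at 0.309 (0.286 to 0.334), with 72.3 CPM in the first set and 234 CPM in the second. Cells with both enter neither side of this ratio. In the air library Cdc6 stood at 46.6 CPM in cells with both and 20.1 CPM in cells with members alone, and Dtl at 122 and 61.5 CPM. The nucleotide supply group had the lowest median of the 4 roles, 1.42, and the helicase and origin group the highest, 4.75. Across the 35 members this ratio and the log2 ratio of 1.5 ppm to air had a rank correlation of -0.33, a weak one over genes that share the same cells and libraries.

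Within the 2 sets of cells rich in member UMIs, most members were not higher at 1.5 ppm by their intervals. Both sets were chosen in each library by the same cut on the other members. A median near 1 therefore follows in part from that choice, and a larger share of some members leaves less for the others. Counts over all genes in these sets were not made. In cells with 10 or more UMIs of the other members and under 3 of the G2 and M list, the median ratio of 1.5 ppm to air was 1.00. Here 5 members had an interval above 1 (Gins2, Dut, Dtymk, Pclaf and Rfc4), 9 below it and 21 that held 1. In cells with both, the median ratio was 0.838, with 26 members below 1, 6 holding it and 3 above it (Dut, Dtymk and Pclaf). Here the 2 subunits of ribonucleotide reductase were both lower, Rrm2 at 360.0 CPM in air, 288 CPM after 1 ppm and 196 CPM after 1.5 ppm, a ratio of 0.546 (0.514 to 0.579), and Rrm1 with a ratio of 0.784. Ezh2 stood at 413, 255 and 280 CPM. For Rrm2 this set held 176 cells in air, 94 at 1 ppm and 859 at 1.5 ppm. In the same order, Rrm2 was among the leading genes of a macrophage-like cluster of 59, 11 and 10 cells and of another of 56, 58 and 739. The part of such clusters in these ratios was not tested. Read on UMIs thinned to 5000 per cell, in place of all UMIs of the same cells, the numbers were 4 above and 4 below 1 in the first set and 3 above and 14 below in the second, with medians of 0.966 and 0.852.

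Dut, Dtymk and Pclaf had ratios of 1.5 ppm to air with intervals above 1 in all sets. Gins2, Rfc4 and Ung also had ratios above 1 in all sets, but their intervals held 1 in cells with both. Dut had 102, 114 and 155 CPM in cells with members alone, 177, 182 and 232 CPM in cells with both, and 13.3, 14.0 and 26.0 CPM in cells with neither, with ratios of 1.5 ppm to air of 1.51, 1.31 and 1.96. Dtymk had ratios of 1.66, 1.37 and 1.66 in the same order. Pclaf had ratios of 1.82 (1.54 to 2.16), 1.05 (1.014 to 1.095) and 3.67 (2.96 to 4.59), so its ratio was smallest in the set where its level was highest, 781 CPM in air and 823 CPM at 1.5 ppm. Rrm1, Pola1, Rpa2 and Slbp had ratios below 1 in every set, but their intervals held 1 in cells with neither. Cdt1 was the only member whose interval lay below 1 in every set when read on all UMIs. It had 126, 109 and 68.0 CPM in cells with members alone, a ratio of 0.539 (0.470 to 0.617), 122, 98.6 and 74.6 CPM in cells with both (0.613) and 21.2, 18.9 and 17.25 CPM in cells with neither (0.815, 0.744 to 0.894). With thinned UMIs its ratios were 0.510 (0.395 to 0.657), 0.808 (0.634 to 1.041) and 0.716 (0.608 to 0.843), so that the interval held 1 in cells with both. Over all cells, of which more were rich in member UMIs at 1.5 ppm, its level was near that of air.

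In cells with neither, which made up 85.8%, 88.3% and 73.2% of the thinned cells, the median ratio of 1.5 ppm to air was 1.28, with 24 members above 1, Cdt1 below it and 10 that held it. The same counts were not made over all genes in this set, so it is not shown whether they are particular to the members. After Pclaf the largest ratios were those of Cdc6 (2.92, 1.86 to 4.78), Dtl (2.19) and Mcm10 (2.02). With thinned UMIs 16 members lay above 1 and 1 below. Free RNA can give UMIs in cells that do not express a gene, and its part here was not tested. Of the 24 members, 6 (Mcm7, Mcm10, Cdc45, Tk1, Pclaf and Fen1) were at 1.5 ppm at or below their level in the neutrophil-like cells. Those neutrophil-like levels rest on few UMIs, from 3 for Cdc45 (3.14 CPM, 0.647 to 9.17) to 20 for Pclaf, and on shallower cells. They do not measure free RNA in this set. For Pclaf the levels were 2.46 CPM in air and 9.01 CPM at 1.5 ppm, against 20.9 CPM in the neutrophil-like cells. Cdc6 had no UMI in those cells (interval up to 3.86 CPM) and 1.71 CPM in this set at 1.5 ppm, and Dtl had 3.14 and 3.25 CPM, so neither was told apart from its level there. Dut, at 11.5 CPM in the neutrophil-like cells, and Dtymk, at 27.2 CPM, had higher levels in this set, 26.0 and 58.3 CPM. Over all cells without 3 or more G2 and M UMIs before thinning, the 6 members that kept a 1.5-fold higher level were Pclaf (log2 1.36), Cdc6 (1.26), Gins2 (0.80), Rfc4 (0.72), Dut (0.71) and Dtymk (0.67), and 26 of 35 lay above air. Besides Cdt1, 8 members turned below air, among them Rrm1 (-0.16) and Brip1 (-0.19), which had been past 1.5-fold over all cells. The mitochondrial share, lower at 1.5 ppm in cells with and without 10 member UMIs, moved with these comparisons and its part in them was not tested beyond the band of 2.5 to 4%, in which 25 members were higher at 1.5 ppm than in air, against 8.95% of all genes.

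**Figure D5:**
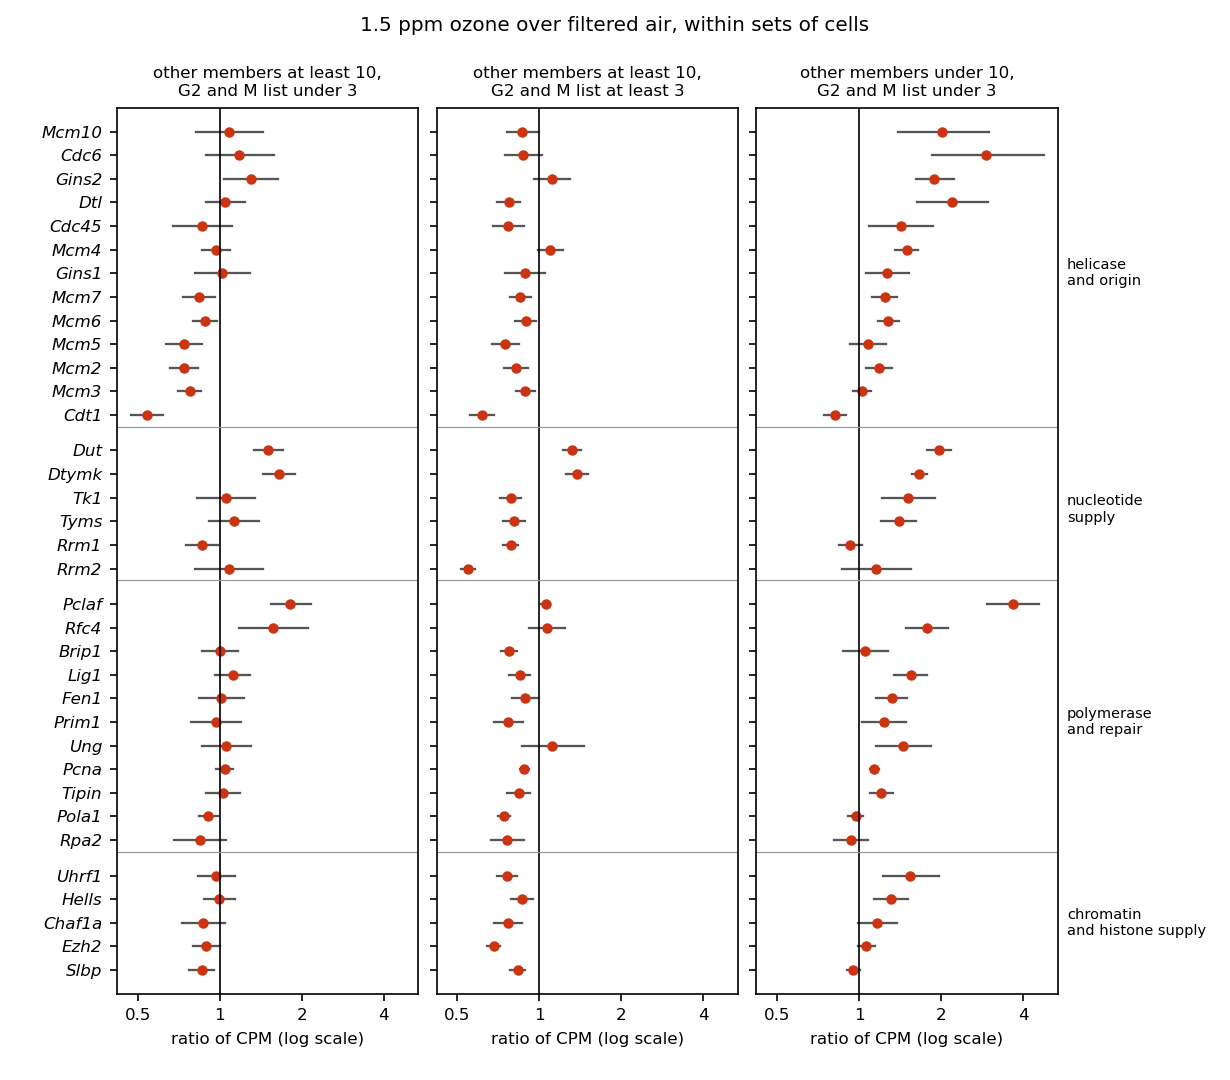
Ratio of each member's level at 1.5 ppm ozone to that in filtered air (log axes) in 3 sets of cells formed from the UMIs of the other 34 members and of the G2 and M list; bars are exact conditional 95% intervals. Intervals lie above 1 in all 3 panels for Dut, Dtymk and Pclaf only, and below 1 in all 3 for Cdt1 only. The medians are 1.00, 0.838 and 1.28.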

How the data were processed

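The 3 libraries of pooled lavage cells were analysed. Per the file headers, the authors made the deposited UMI counts per gene and barcode with Cell Ranger 8.0.0, and per the submitters' processing notes on GRCm39 (mm39). Per the labels, the kit was a 10x Chromium 3' kit; the treatment of intronic reads is not given in the sources here, and unspliced transcripts may enter the counts of long genes. Kept barcodes had at least 500 UMIs, 300 genes and at most 10% mitochondrial UMIs. From the counts, UMIs were summed per library and expressed as CPM. Log2 ratios add 1 UMI to each sum. Calls needed 1.5-fold and 100 UMIs over the 3 libraries, and intervals are exact Poisson, conditional or Clopper-Pearson at 95%. The limit on a share at 0 is that of 3 counts. Depth was 38147865 to 93824775 UMIs per library after filtering, and medians of 11986 to 15743 UMIs per cell limit what single cells show. With 1 library per group no test was made, and no sample was left out.

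Cells were thinned to 5000 UMIs with a fixed seed per barcode. Sets of cells were formed on thinned counts, always leaving out the gene measured; levels within a set used all UMIs of its cells, a choice made after the thinned values had been seen. The division by G2 and M genes, its alternatives and repeated random thinnings were also added after seeing the data. Clusters came from the Leiden method at resolution 1.0 on 30 principal components of 2000 variable genes (leidenalg 0.10.2, igraph 0.11.9), and took class names from marker genes. No doublet caller was run. Software was matplotlib 3.10.9, pandas 2.3.3, scipy 1.17.1 and numpy 2.4.6 under Python 3.11.15; scripts were tested on simulated data. The members and lists were chosen with earlier results of these data known. All 35 members are reported, and up to 4 genes of each other list by absolute log2 ratio at 1.5 ppm over air; 1 gene that this rule would name is not reported here. Promoters came from RefSeq (GRCm38.p6), the first listed per symbol; Mcm4, Tipin, Gins1 and Gins2 had no entry matched. Alternatives were other cell filters, scalings, gene minimums, fold thresholds and depths.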

Additional observations from a re-analysis of the deposited data

Results flagged for a closer look

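Barcodes over 10% mitochondrial UMIs, which the comparisons leave out, also held member UMIs, and this signal outside the measured cells is why the 1.5 ppm value is given. Summed over the 35 members the level was 1350 CPM at 1.5 ppm (1292 to 1409, 659 barcodes), against 893.5 CPM in air (873.5 to 913.8, 1816 barcodes) and 924.7 CPM at 1 ppm (897.3 to 952.7, 990 barcodes). Per 1000000 UMIs that were not mitochondrial, the levels were 1129 in air, 1199 at 1 ppm and 1851 at 1.5 ppm, beside 1245, 1131 and 2004 in the kept cells. These barcodes were shallower, with medians of 4370, 4102 and 1554 UMIs.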

How the results depend on the processing

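No paired analysis was possible because each group is 1 library and the labels give no pairs. For the same reason no replicate could be left out. No member was higher at 1 ppm under any of the alternatives run. The number lower there was 0, but 2 without the 5% of cells of highest UMI total, 2 with the mean of each cell's CPM and 1 without G2 and M cells (those with at least 3 UMIs of that list). The 1 ppm median log2 ratio of -0.14 reversed to 0.034 among barcodes of 2.5 to 4% mitochondrial UMIs and was -0.24 without the 5% of cells of highest UMI total. The 23 members higher at 1.5 ppm than in air became 7, and the 28 higher than at 1 ppm became 10, at 2-fold; without G2 and M cells both became 6. Under the other alternatives the counts were 16 to 26 and 25 to 31. Of the alternative counts in this paragraph, those at 2-fold have the share of all genes given above. So do, for 1.5 ppm over air, those without G2 and M cells and in the mitochondrial band. The others stand without that share, so it is not shown whether their shifts are particular to the members. The median at 1.5 ppm over air, 0.66, was 0.78 without the deepest 5% of cells, 0.19 without G2 and M cells and 0.55 with the mean of each cell's CPM. That over 1 ppm, 0.82, was 0.99 and 0.37 in the first 2 of these and 0.71 in the mitochondrial band. Rrm1 and Brip1 reversed at 1.5 ppm over air without G2 and M cells, to -0.16 and -0.19.

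The share of cells with 10 or more member UMIs, in the order air, 1 ppm and 1.5 ppm, was 7.38%, 6.31% and 15.8% when thinned to 3000 UMIs, and 29.1%, 31.15% and 37.6% without thinning. It was 22.5%, 19.1% and 36.8% at 5 or more UMIs, and 8.08%, 6.399% and 16.8% at 15 or more. Without the deepest 5% of cells it was 10.05%, 7.25% and 19.7%. The cause of these shifts was not tested beyond what each alternative removes. All intervals cover counting error only, so differences between mice, days or preparations cannot be judged from 1 library per group.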
